A study of Mus musculus with 97 samples.

Results

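The replication-dependent core histone genes encode the H2A, H2B, H3 and H4 proteins around which new DNA is wrapped during S phase. They were taken as every gene of the count table whose symbol begins with Hist1 to Hist4 and names a core subfamily, with the linker H1 genes left out. This gave 65 of 37620 entries, of which 20 were H2A, 19 H2B, 13 H3 and 13 H4 genes. The rule goes by name alone, so it also admits Hist3h2bb-ps, whose suffix marks a pseudogene, and the H2BE variant Hist2h2be. All 65 passed the filter on low counts that 16011 genes passed. The mouse genome holds them in 4 groups, and 50 of the 65 carried the Hist1 name, 11 the Hist2 name, 3 the Hist3 name and 1 the Hist4 name.

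The RNA came from a mouse embryonic stem (ES) cell line labelled GFP Sox2-AID, whose Sox2 protein is fused to a degron. When auxin is present, this tag directs the fusion protein to the proteasome. Cells grew on gelatine with serum and LIF, and all of them received 20 µM Hoechst-33342, a DNA dye, for the last 20 min. They were left untreated or kept in 0.5 mM auxin for 3 h, then sorted on Hoechst and GFP into early G1, late G1 and G2, which gave 6 groups of 3 libraries. RNA was depleted of ribosomal RNA rather than selected on poly(A) tails, so transcripts without a tail were captured. Nothing in the labels says that the 3 libraries of a group came from separate cultures, so the p-values measure only the spread between these libraries. All groups come from this 1 line, and what the GFP signal reports is not stated.

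Core histone mRNAs end in a stem-loop in place of a poly(A) tail. Transcription is driven by Npat under control of cyclin E and Cdk2, the stem-loop is bound by Slbp, and the transcripts are degraded when replication ends. The level of these mRNAs is therefore widely used as a sign of S phase, and ES cells are known for a short G1.

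Total counts ran from 24841963 to 37587322 per library. Genes of the G2/M list, such as cyclins and spindle genes, rose in G2 over late G1 in 18 of 20 cases without auxin. This count is at an adjusted p under 0.05 in edgeR, where 2.72% of all genes rose. The list summed to 2560 to 2962 CPM in untreated late G1 against 5592 to 5959 CPM in untreated G2. CPM are counts scaled to the TMM-adjusted library size, as in edgeR. Summed ES cell markers averaged 4392 to 4636 CPM over the 6 groups, and fibroblast or feeder markers 7.92 to 10.7 CPM. Summed trophectoderm markers measured 33.0 to 44.3 CPM in untreated early G1 against 23.6 to 28.6 CPM in untreated late G1, with no overlap. Summed primitive endoderm markers measured 55.2 to 82.6 CPM in untreated late G1 against 89.2 to 126 CPM in untreated G2, again with no overlap. The part of these markers in the results was not tested. Sox2 mRNA measured 277 to 395 CPM in untreated and 314 to 413 CPM in auxin libraries, which does not check the loss of the protein. Libraries are bulk pools of sorted cells, so more cells with histone mRNA and more histone mRNA per cell cannot be told apart.

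Promoter stretches of 7 members are shown to give the regulatory letters that differ between the subfamilies. They are the 150 bases before the RefSeq start of each gene in GRCm38.p6, 5′ to 3′ on the gene's strand. Capitals mark matches on either strand to CCAAT (the CCAAT box), TATAAA (the TATA box) and ATGCAAAT (the octamer bound by Oct factors).
Hist1h2ba, chr13:23934157-23934306, minus strand: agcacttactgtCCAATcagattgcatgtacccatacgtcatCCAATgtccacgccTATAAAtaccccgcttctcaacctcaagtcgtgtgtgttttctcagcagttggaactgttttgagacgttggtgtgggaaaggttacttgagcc
Hist1h2bk, chr13:22035671-22035820, plus strand: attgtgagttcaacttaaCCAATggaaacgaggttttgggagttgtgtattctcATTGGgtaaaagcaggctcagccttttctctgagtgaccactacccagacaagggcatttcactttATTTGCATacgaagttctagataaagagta
Hist1h2af, chr13:23533725-23533874, plus strand: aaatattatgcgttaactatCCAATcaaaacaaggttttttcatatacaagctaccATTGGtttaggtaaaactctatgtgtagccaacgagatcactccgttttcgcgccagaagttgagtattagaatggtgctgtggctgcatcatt
Hist1h3b, chr13:23752195-23752344, plus strand: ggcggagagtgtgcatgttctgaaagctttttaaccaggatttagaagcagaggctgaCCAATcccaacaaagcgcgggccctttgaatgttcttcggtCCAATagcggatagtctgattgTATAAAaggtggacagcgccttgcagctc
Hist1h4d, chr13:23581418-23581567, plus strand: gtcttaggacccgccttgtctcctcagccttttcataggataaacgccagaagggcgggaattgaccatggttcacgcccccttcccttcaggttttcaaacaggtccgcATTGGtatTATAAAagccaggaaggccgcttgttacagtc
Hist1h4i, chr13:22041363-22041512, minus strand: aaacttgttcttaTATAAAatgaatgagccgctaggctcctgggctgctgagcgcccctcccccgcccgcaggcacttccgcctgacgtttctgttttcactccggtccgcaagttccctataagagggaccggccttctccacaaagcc
Hist4h4, chr6:136804432-136804581, minus strand: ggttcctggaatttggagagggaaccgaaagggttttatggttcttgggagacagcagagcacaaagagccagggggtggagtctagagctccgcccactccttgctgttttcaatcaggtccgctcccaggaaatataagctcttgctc
These 7 were chosen for their values: Hist1h2ba had the steepest rise of all members, Hist1h2bk is the most abundant H2B gene by count, and Hist1h2af, Hist1h3b and Hist1h4d had the steepest called rises of their subfamilies. Hist1h4i and Hist4h4 are the H4 genes above 10 CPM whose difference between early and late G1 did not pass the test.

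The search covered the 250 bases before the start in 53 members that have 1 window in the RefSeq table, and in 32851 windows of all genes. The CCAAT box was found in 43 of 53 members (81.1%) against 33.8% of all windows. It was in 17 of 17 H2A, 15 of 15 H2B and 8 of 9 H3 windows, but in 3 of 12 H4 windows. The TATA box was found in 25 of 53 members (47.2%) against 12.4% of all windows. Matches at any distance within the window counted. The nearest began 32 bases before the start in Hist1h4d, 137 in Hist1h4i and 198 in Hist1h2bk. The octamer was in 7 of 17 H2A and 6 of 15 H2B windows and in no H3 or H4 window, against 1.6% of all windows. In H2B genes the median log2 fold change from early to late G1 without auxin was 2.28 with the octamer and 1.86 without it, and in H2A genes 2.03 and 1.75. The H2B medians include genes with a mean under 10 CPM. These were Hist1h2ba at 3.82 with the octamer, and Hist3h2ba at 0.76, Hist1h2br at 1.43 and Hist1h2bn at 2.40 without it. With and without the TATA box the same medians were 2.18 and 2.23 in H2B genes and 1.71 and 1.82 in H2A genes. In H3 genes they were 2.06 and 1.82, and in H4 genes 1.63 and 1.55. With and without the CCAAT box the medians were 1.97 and 1.52 in H4 genes, and 1.86 and 2.02 in H3 genes. The part of these motifs in the rise was not tested. H2A and H2B neighbours share promoter bases, so these windows are not independent, and a match describes letters only.

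The first comparison asked how the 4 subfamilies moved between the sorted phases. Summed core histone mRNA was 3785, 3797 and 2956 CPM in the untreated early G1 libraries numbered 1, 2 and 3. It was 8880, 15270 and 11212 CPM in untreated late G1 and 3508, 5545 and 4604 CPM in untreated G2. Every late G1 library lay above every early G1 and G2 library, while early G1 and G2 overlapped. No group was labelled as S phase, so the level between late G1 and G2 was not measured. The mean sum was 3.36-fold higher in late than in early G1, and 2.59-fold higher in late G1 than in G2.

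Each subfamily sum followed this order. The H2A sum was 681 ± 103 CPM in untreated early G1, 2320 ± 748 CPM in late G1 and 840 ± 216 CPM in G2 (SD, n = 3). The H2B sum was 580 ± 81.4, 2316 ± 745 and 757 ± 221 CPM in the same groups. The H3 sum was 547 ± 95.3, 1996 ± 748 and 779 ± 238 CPM. H4 genes, with the largest sum, stood at 1705 ± 221, 5155 ± 1005 and 2176 ± 352 CPM. The ratio of means of late to early G1 was 3.99 for H2B, 3.65 for H3, 3.41 for H2A and 3.02 for H4. From late G1 to G2 the sums fell by factors of 3.06, 2.56, 2.76 and 2.37 in the same order of subfamilies. The median fold of single members from early to late G1 gave another order: H3 3.73, H2B 3.63, H2A 3.37 and H4 2.96. In the untreated libraries numbered 1, the H2A sum went from 751 to 1633 CPM and the H4 sum from 1876 to 4347 CPM. H4 thus did not rise least there. In each subfamily the late G1 libraries did not overlap with those of early G1 or G2. These sums carry no test, because a sum over members chosen with results known gets no p.

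**Figure D1:**
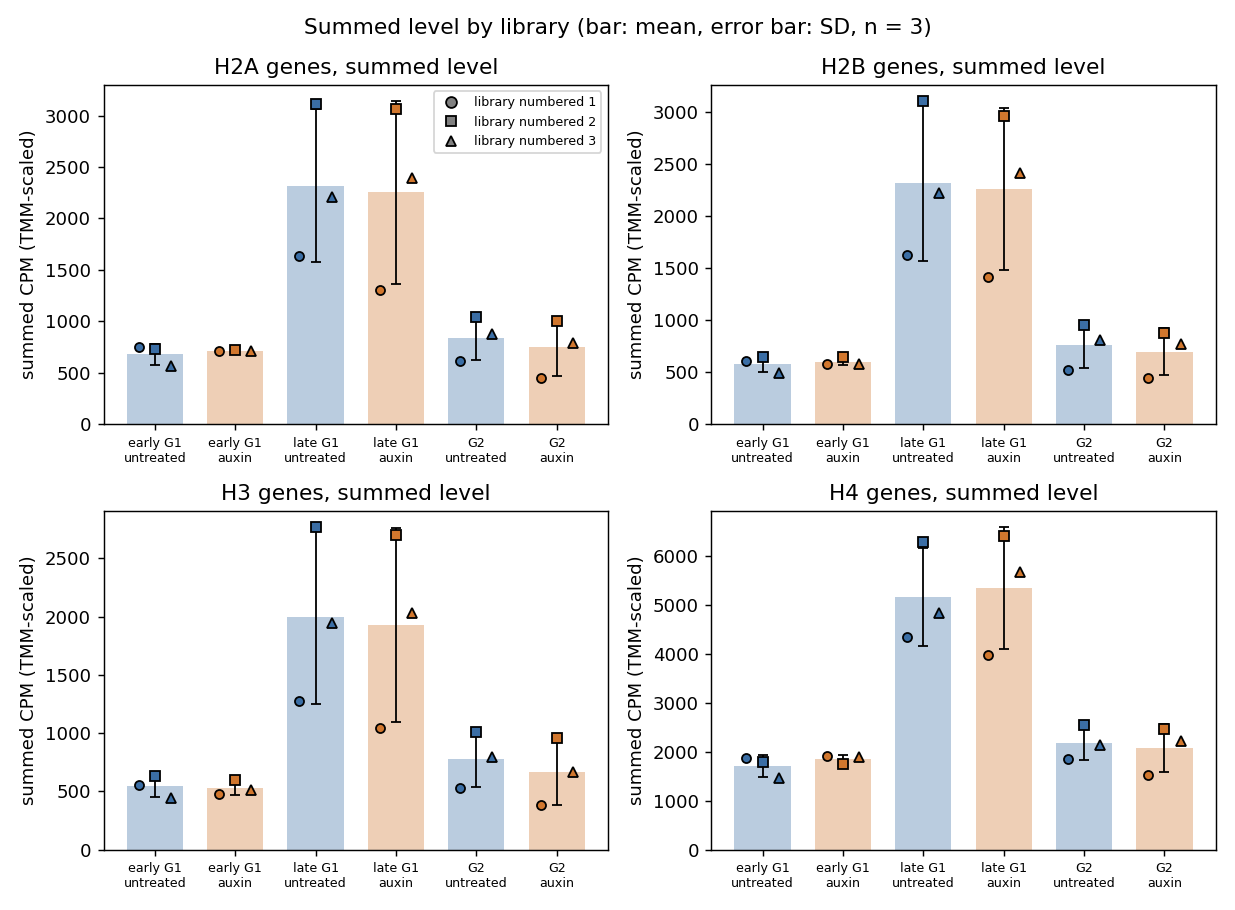
Summed CPM of the H2A, H2B, H3 and H4 genes in each library. Bars are means of 3 libraries, error bars are SD, and symbols mark the library number, with untreated libraries in blue and auxin libraries in orange. In every panel the 6 late G1 libraries lie above the other 12.

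H2B took a larger share of core histone counts in late G1 than in early G1. Its share was 16.5% ± 0.587 in untreated early G1, then 19.5% ± 1.07 in late G1 and 16.5% ± 1.48 in G2, and the libraries of early and late G1 did not overlap. The H4 share was 48.6% ± 1.41, 44.4% ± 4.06 and 48.3% ± 3.79, and its groups overlapped. The H2A share stayed between 17.4% and 20.4% in the 9 untreated libraries and the H3 share between 14.4% and 18.2%. On the per-length scale of TPM, H4 genes held 60.6% ± 1.16 of core histone TPM in untreated early G1, then 57.3% ± 3.85 in late G1 and 59.4% ± 2.83 in G2. H2B held 14.0% ± 0.397, 16.6% ± 0.900 and 15.3% ± 1.04 of core histone TPM in the same groups. On this scale its mean share in G2 stayed above that in early G1, though the libraries overlapped. In untreated late G1, H2A held 15.6% and H3 10.6% of core histone TPM.

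The level in late G1 also differed between libraries of the same group. The sum in the untreated late G1 library numbered 2 was 1.72-fold that of number 1, and in auxin late G1 it was 1.95-fold. In late G1 and in G2, with and without auxin, every subfamily sum was highest in number 2 and lowest in number 1. At the level of genes this order held for 57 of 65 members in untreated late G1 (13.8% of all genes tested) and for 54 in untreated G2 (11% of all genes tested). In auxin late G1 it held for 56 and in auxin G2 for 51 (18.3% of all genes tested in each). It held for 3 in untreated early G1 (10.3% of all genes tested) and for 22 in auxin early G1 (15.8% of all genes tested). H4 varied least: the coefficient of variation over the untreated late G1 libraries was 19.5% for the H4 sum, 32.2% for H2A, 32.2% for H2B and 37.4% for H3. Of 22 G1/S and S-phase genes, such as replication factors, 16 rose from early to late G1 without auxin in edgeR (3.27% of all genes rose). They summed to 5717, 5464 and 4838 CPM in the untreated late G1 libraries numbered 1, 2 and 3, another order than that of the histone sums. The cause of the differences between libraries was not tested.

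The ratio of G2 to late G1 for the core sum was 0.395, 0.363 and 0.411 in the untreated libraries numbered 1, 2 and 3. The ratio of late to early G1 within a number was 2.35, 4.02 and 3.79. The library numbered 1 thus had the smallest step from early to late G1.

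The second comparison tested each gene between early and late G1. Of the 65 members, 48 rose in untreated late G1 and 0 fell in edgeR's quasi-likelihood test (adjusted p under 0.05 over all 16011 genes), against 3.27% of all genes that rose and 3.75% that fell. The median log2 fold change of the members was 1.84 (3.58-fold), and that of all genes tested was -0.00063. By subfamily, 15 of 20 H2A, 15 of 19 H2B, 8 of 13 H3 and 10 of 13 H4 genes rose. In 53 of 65 members the 3 late G1 libraries all lay above the 3 early G1 libraries (10.7% of all genes tested). Among the 13 members with a mean under 10 CPM, 3 rose, and among the other 52, 45 rose. With the library number as a block 54 rose (11.4% of all genes). The count was 17 without the untreated libraries numbered 3, 9 without number 3 in every group, and 26 with limma on log2(TPM + 0.1), while the median log2 fold change of members stayed between 1.53 and 2.09 over 20 alternatives.

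The most abundant H2B gene, Hist1h2bk, measured 99.8, 93.2 and 75.9 CPM in untreated early G1, 332, 550 and 419 CPM in late G1, and 106, 183 and 170 CPM in G2. All late G1 libraries were highest and the 3 groups did not overlap. The rise to late G1 was 4.83-fold (95% interval 3.21 to 7.27, adjusted p = 0.000139, edgeR). Hist1h2bh measured 10.4, 14.1 and 7.48 CPM in early G1 and 44.6, 112 and 70.1 CPM in late G1, again with no overlap. Its log2 fold change was 2.82 ± 0.48 (SE), an adjusted p of 0.00353 in edgeR. Hist1h2bl and Hist1h2bn, both low in level, rose by 2.47 ± 0.44 and 2.40 ± 0.49 on the log2 scale.

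Hist1h2ba, the testis-linked H2B gene, had the largest fold at a very low level. It was at 0.121, 0.262 and 0.133 CPM in untreated early G1, 2.30, 3.07 and 2.03 CPM in late G1 and 0.420, 0.492 and 0.406 CPM in G2. No group overlapped another, and its log2 fold change from early to late G1 was 3.82 ± 0.40 (edgeR adjusted p = 1.52e-05). Its divergent neighbour Hist1h2aa, the testis-linked H2A gene, went from 0.697, 0.229 and 0.598 CPM to 3.10, 4.61 and 3.20 CPM, a log2 fold change of 2.82 ± 0.33. Hist1h2aa gave 0.134% of H2A counts on average.

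Among the H2A genes, Hist2h2aa2 was the most abundant, with 26.2% of all H2A counts on average. Its levels were 218, 195 and 158 CPM in untreated early G1, 417, 716 and 561 CPM in late G1 and 158, 253 and 224 CPM in G2. Late G1 stood above both other groups, which overlapped, and the rise was 2.97-fold (95% interval 1.91 to 4.61, adjusted p = 0.00549, edgeR). Hist1h2ah and Hist1h2ap rose 4.39-fold and 4.15-fold, and Hist1h2ab rose 5.15-fold (3.18 to 8.35). Hist1h2af rose from 11.6, 12.2 and 6.81 CPM to 58.4, 110 and 79.4 CPM, a log2 fold change of 3.01 ± 0.48. Hist2h2aa1 is a near-identical copy of Hist2h2aa2, and its average log2 CPM of 3.53 and log2 fold change of 2.06 ± 0.78 (adjusted p = 0.144, edgeR) depend on how the reads were split between the copies. Many members are close copies, so values for single genes are less certain than the sums.

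Hist1h3h, the most abundant H3 gene with 15.2% of H3 counts, stood at 85.7, 102 and 75.1 CPM in untreated early G1 and 190, 478 and 313 CPM in late G1. The groups did not overlap and the rise was 3.73-fold (1.81 to 7.70, edgeR adjusted p = 0.0315). Hist1h3c, Hist1h3f and Hist1h3e rose 4.08-fold, 3.75-fold and 3.53-fold. Of the H3 genes that passed, Hist1h3b rose most, from 35.9, 44.0 and 28.3 CPM to 151, 273 and 199 CPM, a 5.76-fold change. Hist1h3a and Hist1h3i, with log2 fold changes of 1.31 ± 0.42 and 1.45 ± 0.43, missed the threshold (edgeR adjusted p = 0.0842 and 0.0595). Both passed with the library number as a block, at 1.21 ± 0.26 and 1.33 ± 0.25 (adjusted p = 0.00869 and 0.00368).

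Among the H4 genes, Hist1h4d went from 121, 134 and 97.1 CPM in untreated early G1 to 534, 677 and 501 CPM in late G1, a 4.85-fold rise (3.38 to 6.97). Hist1h4f rose 4.52-fold and Hist1h4h 3.12-fold. Hist1h4a, which gave 22.8% of H4 counts on average, rose 2.90-fold (2.38 to 3.54) from 373, 355 and 283 CPM to 960, 1094 and 880 CPM. Hist1h4n stood at 379, 344 and 294 CPM in early G1, as high as Hist1h4a, and at 502, 977 and 726 CPM in late G1. It rose 2.17-fold, with an adjusted p of 0.0330 in edgeR that was the largest but 1 among the 10 H4 genes that rose.

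Hist1h4i and Hist4h4 did not pass without a block. Hist1h4i measured 178, 148 and 139 CPM in untreated early G1 and 133, 284 and 214 CPM in late G1, and the groups overlapped. Its ratio was 1.35 (0.874 to 2.10), with an adjusted p of 0.437 in edgeR. Hist4h4 measured 33.8, 38.3 and 30.8 CPM and then 37.3, 103 and 71.8 CPM, a ratio of 2.06 (1.09 to 3.87, edgeR adjusted p = 0.173). With the library number as a block Hist4h4 passed at a log2 fold change of 0.92 ± 0.28 (adjusted p = 0.0388), and Hist1h4i did not (adjusted p = 0.436). As shares of H4 counts, Hist1h4i held 9.11% in untreated early G1 and 4.00% in late G1, while Hist1h4d held 6.89% and 11.1%.

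Only 3 of the 65 members had a log2 fold change below 0 in this comparison, all at low level. They were Hist2h2be at -0.71 ± 0.35 (edgeR adjusted p = 0.25), Hist1h2aj at -0.26 ± 0.66 and 1 of the 2 entries named Hist2h3c1 at -0.17 ± 0.26. Hist2h2be, known as the H2BE variant of olfactory neurons, stood at 0.848, 1.14 and 1.36 CPM in early G1 and 0.517, 0.902 and 0.624 CPM in late G1. These members were named after their values were seen.

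**Figure D2:**
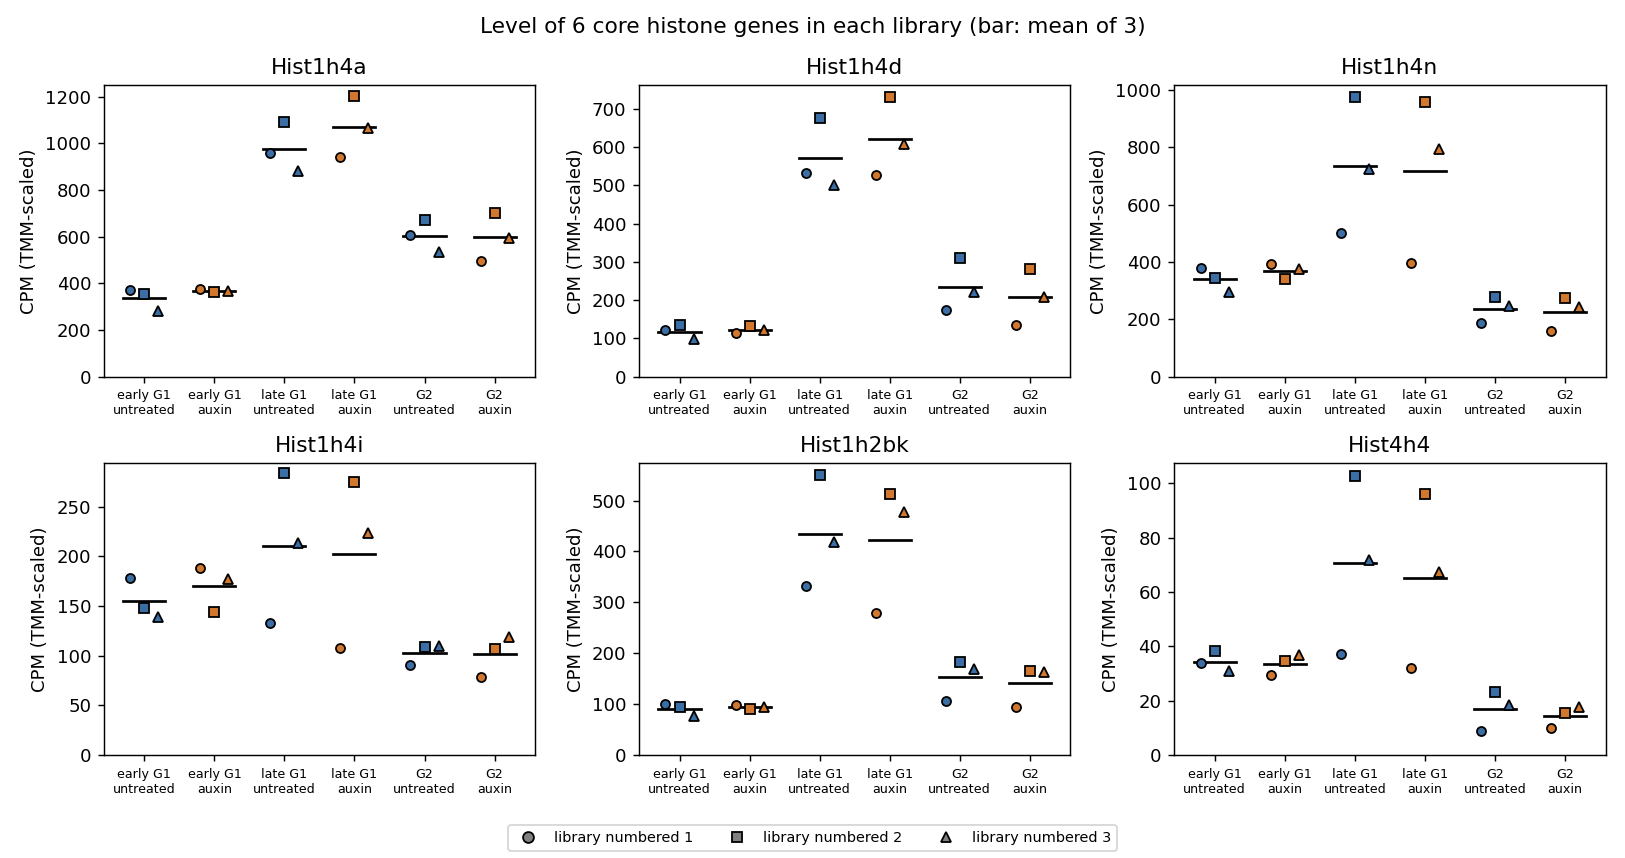
CPM of 6 members in each library, with symbols for the library number and a line at the mean of 3. In untreated G2 Hist1h4a lies above its early G1 libraries, Hist4h4 lies below its own, and Hist1h4i overlaps between early and late G1.

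The third comparison followed the members from late G1 to G2. Of 65 members, 44 fell in untreated G2 and 0 rose in edgeR (2.32% of all genes fell and 2.72% rose), with a median log2 fold change of -1.46 against -0.0095 for all genes tested. All 65 had a log2 fold change below 0, and in 57 the 3 G2 libraries lay below the 3 late G1 libraries (9.79% of all genes tested). By subfamily, 14 of 20 H2A, 15 of 19 H2B, 4 of 13 H3 and 11 of 13 H4 genes fell. With the library number as a block, 11 of 13 H3 genes fell (7.79% of all genes). The count was 19 or 25 without the untreated late G1 library numbered 2 or 3, and 18 or 21 without the untreated G2 library numbered 1 or 3. It was 24 without the low-count filter, 14 with limma on log2(TPM + 1), and 7 without the untreated libraries numbered 3.

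Among members that fell and had an average log2 CPM of at least 1, 5 of the 6 largest falls were in H2B genes. Hist1h2bq fell by 2.18 ± 0.41 on the log2 scale, from 145, 308 and 205 CPM to 28.4, 67.3 and 49.3 CPM (edgeR adjusted p = 0.00621). Late G1 and G2 libraries did not overlap. Hist1h2bn fell by 2.17 ± 0.49, Hist1h2bg by 2.00 ± 0.47, Hist1h2be by 1.94 ± 0.39 and Hist1h2bl by 1.92 ± 0.43. Hist4h4 fell by 2.06 ± 0.44, to 8.87, 23.3 and 18.5 CPM (edgeR adjusted p = 0.0146).

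Hist1h4a fell least among the abundant members. It kept 607, 672 and 535 CPM in untreated G2, below all late G1 libraries and above all early G1 libraries. Its log2 fold change from late G1 was -0.69 ± 0.13 (edgeR adjusted p = 0.0040). Its share of H4 counts was 19.7% in untreated early G1, then 19.2% in late G1 and 28.1% in G2, whereas that of Hist1h4n went from 19.9% to 14.0% and 10.9%. Hist2h2bb fell by 0.93 ± 0.23, from 133, 207 and 164 CPM to 65.4, 117 and 83.4 CPM.

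Between early G1 and G2, 3 of 65 members were higher in untreated G2 (1.9% of all genes tested) and 0 were lower (1.7% of all genes tested) in edgeR. They were Hist1h4a at 0.84 ± 0.13 on the log2 scale (adjusted p = 0.00118), Hist1h4d at 1.00 ± 0.24 (adjusted p = 0.0288) and Hist2h2bb at 0.92 ± 0.23 (adjusted p = 0.0363). Hist1h4d measured 175, 310 and 220 CPM in untreated G2, above its 97.1 to 134 CPM in early G1. With the library number as a block, 11 members were higher and 5 lower (7.79% and 6.95% of all genes tested). Hist1h3b, at 1.01 ± 0.19 with an edgeR adjusted p of 0.00512, was among those higher, and Hist4h4, at -1.13 ± 0.30 with an adjusted p of 0.0287, was among those lower. The count of 3 was 1 when the untreated early G1 library numbered 1 or 2, or the untreated G2 library numbered 2 or 3, was left out, and 10 with DESeq2.

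**Figure D3:**
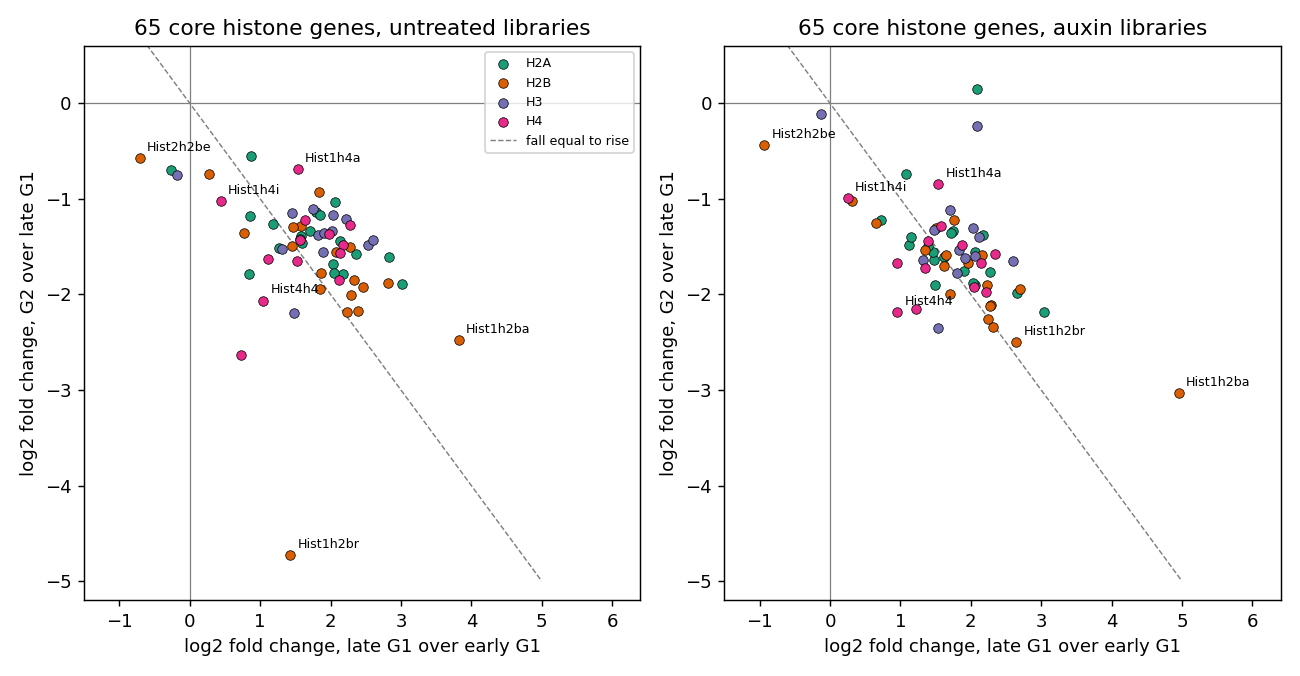
Log2 fold change of each of the 65 members from early to late G1 (horizontal) and from late G1 to G2 (vertical), coloured by subfamily, with untreated libraries on the left and auxin libraries on the right. Points on the dashed line fall as much as they rose. Hist1h4a lies above the line and Hist4h4 below it in both panels, and the untreated medians are 1.84 and -1.46.

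The same phase comparisons in the auxin libraries, which share no library with the untreated ones, gave 46 of 65 members higher in late than in early G1 (3.21% of all genes) and 0 lower (4.21%). This count was 53 with the library number as a block (10.9% of all genes), 23 with limma on log2(TPM + 1), 22 with log2(TPM + 0.1) and 8 without number 3 in every group. From late G1 to G2, 48 fell and 0 rose (2.43% of all genes fell and 3.48% rose). Of the 13 H3 genes 7 fell, and 11 fell with the library number as a block (7.85% of all genes). Of the 48 untreated calls of late G1 over early G1, 46 were also made in auxin libraries, and of the 44 calls of G2 below late G1, 44. Both sets of calls came from the same fit with a shared estimate of the spread. Most same-numbered untreated and auxin libraries also deviated together, so these calls are not independent. Over the 65 members the log2 fold changes of late over early G1 correlated between untreated and auxin libraries with a Pearson r of 0.85, a description across genes that share library numbers. The median absolute difference between both fold changes was 0.0983. The summed core level was 3669, 3716 and 3692 CPM in auxin early G1, 7734, 15117 and 12501 CPM in auxin late G1 and 2803, 5304 and 4455 CPM in auxin G2. The H2B share of core counts went from 16.2% ± 0.856 to 19.0% ± 0.659 between auxin early and late G1, again with no overlap.

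Between early G1 and G2 with auxin, Hist1h4a was higher at 0.70 ± 0.13 (edgeR adjusted p = 0.00565) and Hist2h2be lower at -1.37 ± 0.36 (adjusted p = 0.0403), with 2.09% of all genes higher and 1.79% lower. With the library number as a block, 4 members were higher and 3 lower (8.03% and 7.16% of all genes). The 48 falls from late G1 were 29 without the auxin late G1 library numbered 2, 31 without the auxin G2 library numbered 1, and 11 when only these groups entered the fit.

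The fourth comparison asked whether 3 h of auxin moved these genes. In edgeR 0 of 65 members passed in early G1, late G1 or G2, where 0.106%, 1.02% and 0.668% of all genes passed. At an unadjusted p under 0.05 there were 1, 0 and 0 members, and DESeq2 also called 0 in each phase. With the library number as a block 0 members passed in each phase as well. In early G1 0.768% of all genes were then higher and 0.824% lower, in late G1 2.52% and 3.42%, and in G2 1.96% and 1.55%. The ratio of auxin to untreated for the core sum was 1.05, 1.00 and 0.920 in these phases, and the libraries overlapped in each phase. Within a number, the auxin sum lay below the untreated sum in numbers 1 and 2 in every phase, and in number 3 only in G2. For the 52 members with a mean of at least 10 CPM the median log2 fold change was 0.044, -0.043 and -0.17 in the 3 phases, and the median half-width of the 95% interval was 0.733, 0.711 and 0.729. Changes of single genes smaller than about that size cannot be told from 0 at the spread of this fit, which leaves the library number out. Over all 65 members the median ranged from -0.14 to 0.11 in early G1, from -0.34 to 0.25 in late G1 and from -0.44 to 0.11 in G2 across the alternatives, so no direction is given. Without the untreated late G1 library numbered 2, for example, 63 of 65 members were above 0 in late G1, and with limma on log2(TPM + 1) 2 were.

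Averaged over phases, 0 of 65 members passed in edgeR (5.68% of all genes passed), with 2 at an unadjusted p under 0.05 and 0 by DESeq2. In the same comparison 5 of 10 ES cell markers were lower (3 in late G1 alone), such as Nanog at -0.29 ± 0.044 on the log2 scale, and of 6 tested trophectoderm markers 3 were higher and 1 lower. The part of these markers was not tested. The median half-width of the interval was 0.418 for the 52 members. With the library number as a block 1 member was lower (11.7% of all genes), Hist1h2ba, at -0.64 ± 0.23 on the log2 scale (adjusted p = 0.0457). It measured 0.0885, 0.0920 and 0.0326 CPM in auxin early G1 against 0.121, 0.262 and 0.133 CPM untreated, with no overlap, while in late G1 and G2 the treatments overlapped. Its mean count over the 18 libraries was 29.2 and early G1 was its lowest phase, so these early G1 values rest on few reads. The change with auxin of the step from early to late G1, and of that from late G1 to G2, passed for 0 of 65 members in edgeR and for 0% of all genes tested. No member had an unadjusted p under 0.05 in either, and DESeq2 called 0.

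**Figure D4:**
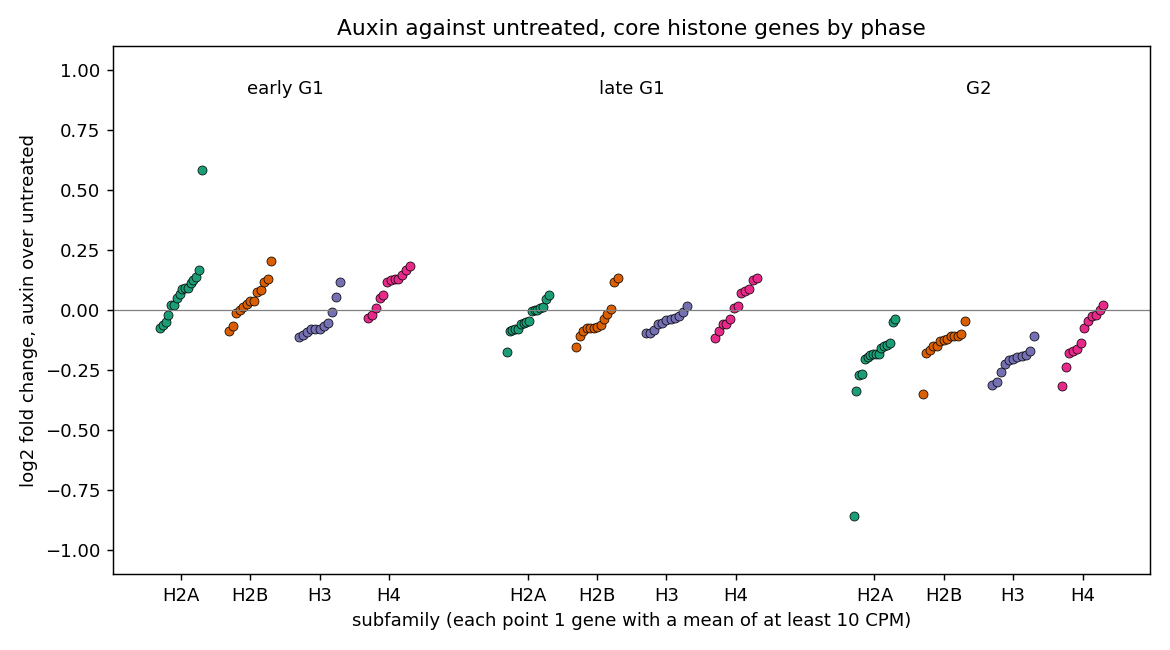
Log2 fold change of auxin over untreated libraries in early G1, late G1 and G2 for the 52 members with a mean of at least 10 CPM, each point 1 gene, grouped by subfamily. No point passed the test, and the early G1 points lie between -0.11 and 0.58, the late G1 points between -0.17 and 0.13, and the G2 points between -0.86 and 0.02.

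Genes that act on histone mRNA were then set beside the members. Of 23 tested genes of histone mRNA production and processing, 8 rose and 2 fell from early to late G1 without auxin in edgeR (3.27% of all genes rose and 3.75% fell). Slbp, the stem-loop binding protein, rose by 0.58 ± 0.10 on the log2 scale (adjusted p = 0.00244), and Npat, the coactivator of histone genes, by 0.33 ± 0.095 (adjusted p = 0.0448). Casp8ap2 (FLASH), which works in processing the 3′ end, rose by 0.47 ± 0.082 (adjusted p = 0.00171). Ccne1 and Ccne2, the E cyclins, rose by 0.97 ± 0.14 and 0.66 ± 0.095, and their partner Cdk2 by 0.56 ± 0.086. Zfp473, a zinc finger protein of the processing complex, fell by 0.40 ± 0.099, and Zcchc6, a uridylyl transferase, fell by 0.35 ± 0.073.

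From late G1 to G2, 7 of these 23 genes fell and 2 rose (2.32% of all genes fell and 2.72% rose). Slbp fell by 0.92 ± 0.11 and Ccne2 by 1.66 ± 0.099 on the log2 scale. Casp8ap2 fell by 0.39 ± 0.082 (edgeR adjusted p = 0.00687), and Npat had a log2 fold change of -0.27 ± 0.095 that missed the threshold (adjusted p = 0.125). Zfp473 rose by 0.86 ± 0.099, and Pou2f1, which encodes the octamer-binding factor Oct-1, rose by 0.35 ± 0.092 (adjusted p = 0.0330).

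Histone chaperones, which carry new histones to DNA, rose in 5 of 12 cases from early to late G1 without auxin and fell in 0, against 3.27% and 3.75% of all genes. Chaf1b and Chaf1a, subunits of the CAF-1 complex, rose by 0.91 ± 0.090 and 0.75 ± 0.11, and Asf1b by 0.69 ± 0.10. From late G1 to G2, Chaf1b fell by 1.06 ± 0.090 and Chaf1a by 0.48 ± 0.11, and 0 chaperones rose.

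The sum of the linker H1 genes was 390 ± 51.1 CPM in untreated early G1, 1431 ± 507 CPM in late G1 and 497 ± 153 CPM in G2, and 4 of 6 rose in late G1 (3.27% of all genes). The median log2 fold change of the 6 was 2.12. Of 9 tested core histone variants listed as replication-independent, H2afx, whose mRNA is known with and without a poly(A) tail, rose by 1.12 ± 0.22 (edgeR adjusted p = 0.00464), Cenpa, the centromeric H3, fell by 1.16 ± 0.097, and 7 did not pass. Their median log2 fold change was 0.14. H3f3a and H3f3b, which encode H3.3, had log2 fold changes of 0.10 ± 0.14 and 0.16 ± 0.090.

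Position in the genome was compared last. The 50 Hist1 members had a median log2 fold change of 1.88 from early to late G1 without auxin and 43 of them rose (3.27% of all genes rose). The 11 Hist2 members had a median of 1.57 and 4 rose, and of the 3 Hist3 members, with a median of 0.76, only Hist3h2a rose, by 0.85 ± 0.19 (edgeR adjusted p = 0.0126). These groups differ in level, and 6 of the members were under 10 CPM in the Hist2 and Hist3 groups.

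Among members with a RefSeq window, there were 9 divergent pairs of an H2A and an H2B gene, with 164 to 281 bases between the 2 start sites. The median absolute difference of log2 fold change from early to late G1 within a pair was 0.26, with a range of 0.14 to 1.39. Unpaired H2A and H2B genes were not compared, so this median does not show whether pairs are closer than other genes. Hist1h2ah and Hist1h2bk, 178 bases apart, rose by 2.13 and 2.27 on the log2 scale. Hist1h2ak and Hist1h2bn, 164 bases apart, rose by 2.17 and 2.40. The widest difference was 1.39, between Hist1h2bq at 2.23 and Hist1h2ao at 0.84, the latter at 7.57, 5.76 and 1.93 CPM in early G1 and 4.45, 14.2 and 8.78 CPM in late G1.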

How the data were processed

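RNA-seq of ribosomal RNA-depleted total RNA gave the 18 libraries used, of 97 samples in the series. Per the submitters' processing notes, the tools were STAR, RSEM, Bowtie2 and MACS2 and the build was mm9, without versions or roles. The deposited table held expected counts rounded to whole numbers (estimated counts, in which reads of near-identical copies are shared between them), and a second deposited table held TPM. Whether counting used strand is not given in the sources used here. A count of 0 stood beside a TPM above 0 in 256 entries, and 1 non-coding RNA, AC157822.1, took 15.8% to 21.2% of counts.

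edgeR 4.0.16 (R 4.3.3) was run with TMM, filterByExpr by group, a group-means model over 18 libraries with 12 residual degrees of freedom, and the robust quasi-likelihood test. Benjamini-Hochberg adjusted p was taken over 16011 of 37620 genes, and 0.05 was the threshold. Errors beside log2 fold changes are SE and beside CPM or shares SD. Libraries held total counts of 24841963 to 37587322, and the intervals and p-values rest mainly on the spread between libraries of a group. The common biological coefficient of variation was 0.142. limma 3.58.1 on log2(TPM + 1) or log2(TPM + 0.1), DESeq2 1.42.0 and the other settings of the closing section were alternatives. Promoters came from RefSeq GRCm38.p6, and 53 of 65 members matched 1 window. The procedure was tested on simulated data: for late against early G1 without auxin over 16011 genes, 42% of 1.5-fold and 80% of 3-fold changes were recovered. In the same run 10 unchanged genes were called. Libraries were drawn independently and the changed genes at random, so these shares do not give the recovery for the members.

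The members and lists were chosen with earlier results of these data known. Members named were the 4 most abundant of each subfamily, up to 6 called members a direction with the largest fitted change, no overlap and an average log2 CPM of at least 1, every member called with auxin, and Slbp, Npat and Casp8ap2 with up to 4 called genes a list. Other genes were named after their values were seen. Library numbers come from the labels, which do not say what they share. Same-numbered libraries deviated together: the correlation of deviations was 0.322 to 0.627 between untreated phases, 0.284 to 0.475 between auxin phases, and above 0.1 for each auxin comparison except G2, where the lowest was 0.0577. The fit with the number as a block is printed for members where it changes a call of a named member or a count, and for auxin within each phase.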

Additional observations from a re-analysis of the deposited data

How the results depend on the processing

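Over the alternatives run, the members' median log2 fold change kept its sign for late over early G1 (1.53 to 2.09 untreated, 1.47 to 2.02 with auxin) and for G2 over late G1 (-1.66 to -1.20 untreated, -1.88 to -1.35 with auxin). For G2 over early G1 with auxin it ranged from -0.18 to 0.45. The counts of members that passed moved more. With limma on log2(TPM + 1) they were 14 for G2 against late G1 untreated, 0 for G2 against early G1 in both treatments, 23 for late against early G1 with auxin and 17 for G2 against late G1 with auxin. With log2(TPM + 0.1) they were 26 and 22 for late against early G1 untreated and with auxin, 9 and 14 for G2 against late G1, and 0 for G2 against early G1; this setting also moved the median of all genes by -0.17 to -0.15 in the auxin comparisons. Without the low-count filter the counts were 24 for G2 against late G1 untreated and 1 for G2 against early G1 in either treatment. For G2 against early G1 the untreated count was 10 with DESeq2 and 1 without TMM, and the auxin count was 1 with a mean CPM of at least 1. Only the groups compared gave 11 for G2 against late G1 with auxin. The replicate block gave 16 and 7 for G2 against early G1 untreated and with auxin, and 1 for auxin averaged over phases; over all 65 members it moved no other count by over 1.5 times, while the H3 genes that fell from late G1 to G2 went from 4 to 11 untreated and from 7 to 11 with auxin. Leaving out libraries gave 9 to 54 and 8 to 54 for late against early G1 untreated and with auxin, 5 to 48 and 6 to 53 for G2 against late G1, 0 to 10 and 0 to 4 for G2 against early G1, and 0 to 1 for auxin averaged over phases. Without the untreated libraries numbered 3 the counts were 17, 7 and 1 for the 3 untreated comparisons. A setting without the most abundant non-coding RNAs was chosen after seeing the data. The cause of these shifts was not tested.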
